A study of Drosophila yakuba and Drosophila melanogaster with 20 samples.

Results

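The Het scaffolds of the dm3 assembly hold assembled heterochromatic sequence of Drosophila melanogaster. All entries on the 6 scaffolds whose name contains Het (2LHet, 2RHet, 3LHet, 3RHet, XHet and YHet) were taken from 4 tables of base differences between head RNA and the genome, together with the sites of the D. melanogaster editing site list on these scaffolds. They comprised 25980 distinct differences of 1724759 in all 4 tables, and 32 of 1238 listed sites. The contrast was with the euchromatic arms 2L, 3L, 3R and X, which held 1344928 distinct differences and 1012 listed sites. Arm 2R was not part of this contrast, so 2RHet was not compared with its own arm.

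Heterochromatin is the compact, repeat-rich part of the genome around the centromeres and along the Y chromosome. It contains some genes, many of them long and full of transposon remnants. Adenosine deaminases acting on RNA (ADARs) bind double-stranded RNA and convert adenosine to inosine. Inosine is read as guanosine, so that editing appears as A-to-G, or as T-to-C where the transcript comes from the reverse strand. In long double-stranded RNA, such as that formed by inverted repeats, many adenosines of the same strand can be edited close together, whereas single, selective sites are typical of coding exons.

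The study compared ICE-seq, in which acrylonitrile blocks reverse transcription at inosine, with mock-treated RNA in 2 Drosophila species, with 20 libraries in all. The 4 tables come from mock-treated RNA of adult heads of the strain y; cn, bw, sp. There were 2 libraries under the name NextSeq (86-nt reads) and 2 under the name HiSeq (50-nt reads). Other mock-treated and acrylonitrile-treated libraries of this strain were not analysed here. The labels do not say whether the replicates are separate groups of flies or whether the same RNA was run on both instruments, so p-values measure only the spread between these libraries, which may be technical. The tables give position, reference base and differing base without read counts. Depth, expression and editing level are therefore unknown, and an unlisted position may be unedited or uncovered.

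The number of distinct differences on Het scaffolds was 7061 and 15595 in NextSeq replicates 1 and 2, and 2129 and 3431 in HiSeq replicates 1 and 2. This was 1.68% and 1.43% of all differences of the NextSeq libraries and 1.85% and 1.74% of those of the HiSeq libraries. Over the 4 libraries together, 2RHet held 11163 differences (43.0% of those on Het scaffolds), 3LHet 8532 (32.8%), 3RHet 3583 (13.8%), XHet 1774 (6.83%), 2LHet 669 (2.58%) and YHet 259 (0.997%). The A-to-G differences were split about evenly between the strands, with 1391 at a reference A and 1309 at a reference T (51.5% A, exact 95% binomial interval 49.6 to 53.4), as on the arms (51.3%). Intervals of this kind cover counting error only, and neighbouring positions are not independent.

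A-to-G and T-to-C, from here on called A-to-G together, made up a larger share of the differences on Het scaffolds than on the arms in all 4 libraries. The share was 8.23% on Het scaffolds and 5.85% on the arms in NextSeq replicate 1, and 6.78% and 4.86% in NextSeq replicate 2. In the HiSeq libraries it was 24.5% on Het scaffolds and 20.2% on the arms in replicate 1, and 29.4% and 21.7% in replicate 2. The mean difference was 4.07 percentage points ± 2.62 (SD, n = 4 libraries; exact sign-flip permutation test, two-sided, p = 0.125, Benjamini-Hochberg adjusted p = 0.179 over 10 tests). This p is the smallest that 4 libraries allow, so no comparison of this kind could pass 0.05. Within instruments the mean difference was 2.15 points on NextSeq and 5.99 points on HiSeq. Among differences found in at least 2 libraries it was 7.37 points over the 4 libraries.

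The reverse change, G-to-A with C-to-T, was also the more frequent on Het scaffolds in 3 of the 4 libraries. It made up 5.07% and 4.64% of differences on Het scaffolds in NextSeq replicates 1 and 2, against 3.63% and 3.33% on the arms. Its share in HiSeq replicates 1 and 2 was 21.3% and 19.7% on Het scaffolds, against 20.4% and 22.0% on the arms. The ratio of A-to-G to G-to-A was 1.62 and 1.46 on Het scaffolds in NextSeq replicates 1 and 2, against 1.61 and 1.46 on the arms. In HiSeq replicates 1 and 2 it was 1.15 and 1.49 on Het scaffolds, against 0.990 and 0.988 on the arms. On NextSeq the larger share was thus common to both changes, and these ratios, added after the values were seen, were not tested.

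When only differences read on both strands were counted, the A-to-G share on Het scaffolds was above that of the arms in the NextSeq libraries and below it in the HiSeq libraries. A lower-case base was read as the reverse read strand and a capital as the forward one, a meaning the files leave undefined. Of such differences, A-to-G made up 14.3% and 13.8% on Het scaffolds in NextSeq replicates 1 and 2, against 10.8% and 11.6% on the arms. In HiSeq replicates 1 and 2 it made up 16.2% and 19.0% on Het scaffolds, against 17.1% and 25.4% on the arms. The mean difference was then -0.427 points (exact sign-flip permutation test, two-sided, p = 0.875). The Het values rest on 130 to 225 differences per library. Among A-to-G differences alone, 3.59% ± 0.510 were read on both strands on Het scaffolds and 2.20% ± 0.501 on the arms (SD, n = 4 libraries), higher on Het scaffolds in 4 of 4 libraries by 1.39 points (exact sign-flip permutation p = 0.125, adjusted p = 0.179 over 10 tests). Over all kinds, the share read on both strands was 1.98% and 1.44% in the NextSeq libraries and 6.11% and 6.15% in the HiSeq libraries on Het scaffolds, against 0.949% and 0.907% (NextSeq) and 2.33% and 2.48% (HiSeq) on the arms.

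The scaffolds differed among themselves. On 2LHet, 2RHet, 3LHet and 3RHet the A-to-G share was above that of the arms in 4 of 4 libraries, by 0.614 to 10.6 points. The interval of 2LHet included the arms value in NextSeq replicate 2 (3.46% to 8.17%) and in HiSeq replicate 1 (11.4% to 33.9%). That of 3RHet did so in HiSeq replicate 2 (21.2% to 29.1%). XHet was above the arms in 1 of 4 libraries. Its A-to-G share was 6.63% and 4.29% in NextSeq replicates 1 and 2, and 12.3% (7.47 to 18.8) and 19.8% (15.0 to 25.3) in HiSeq replicates 1 and 2. G-to-A with C-to-T made up 29.5% and 21.8% on XHet in the HiSeq libraries, and A-to-T with T-to-A 28.1% and 27.0%. YHet, with 23 to 122 differences per library, was above the arms in 3 of 4 libraries, and its intervals were wide (4.95% to 38.8% in HiSeq replicate 1).

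**Figure D1:**
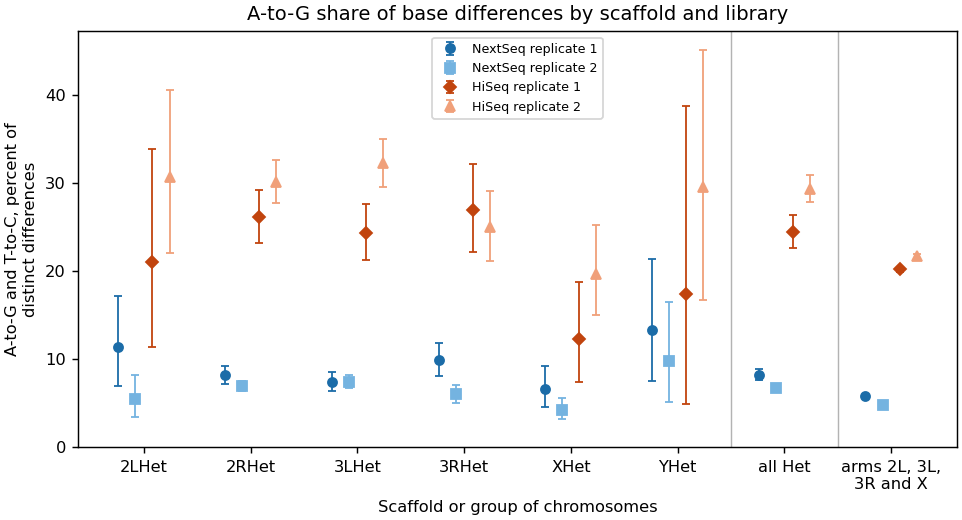
A-to-G and T-to-C as a percentage of the distinct differences of each library (vertical axis) on each Het scaffold, on all Het scaffolds and on the 4 arms (horizontal axis). Points are single libraries and bars exact 95% binomial intervals; the pooled Het scaffolds lie above the arms in each of the 4 libraries, while XHet does so in 1 of 4.

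The instruments gave different mixtures of changes on Het scaffolds. A-to-G made up 7.50% ± 1.03 of Het differences on NextSeq and 27.0% ± 3.46 on HiSeq (SD, n = 2 each). NextSeq minus HiSeq was -19.5 points (p = 0.333 by an exact two-sided permutation test, where 2 against 2 libraries allow no smaller p; adjusted p = 0.370 over 10 tests). On NextSeq, A-to-T with T-to-A made up 52.9% and 50.0% of Het differences in replicates 1 and 2, and C-to-A with G-to-T 20.5% and 23.6%. On the arms these kinds had similar shares, 53.1% and 49.8%, and 22.9% and 25.5%. Among differences on both read strands NextSeq minus HiSeq was -3.52 points. Instrument, read length and depth cannot be told apart here.

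Differences were spread more thinly over Het scaffolds than over the arms where any were found. Each 1000-bp window with at least 1 difference held 5.61 and 8.16 differences on Het scaffolds in NextSeq replicates 1 and 2, and 8.64 and 14.4 on the arms. In HiSeq replicates 1 and 2 it held 3.08 and 3.58 on Het scaffolds, and 4.15 and 4.57 on the arms. The mean difference was -2.85 per window (exact sign-flip permutation p = 0.125, adjusted p = 0.179 over 10 tests; lower on Het scaffolds in 4 of 4 libraries), and -1.70 without NextSeq replicate 2. XHet was the densest scaffold in each library, with 9.86 and 20.4 differences per occupied window in NextSeq replicates 1 and 2, and 4.87 and 7.09 in HiSeq replicates 1 and 2, above the arms in all 4.

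Over the 4 libraries together, 2241 windows on Het scaffolds were occupied, with a median of 4 differences, and 446 windows (19.9%) held a single one. The windows richest in differences of any kind held mixtures. The window at 3LHet from 2398001 to 2399000 (dm3) held 210 differences, of which 74 were A-to-T, 49 C-to-A, 29 G-to-A, 27 A-to-C, 26 A-to-G and 5 C-to-G (each with its complement). At XHet from 192001 to 193000 there were 181 differences, 16 of them A-to-G, and 14 of the 181 were in all 4 libraries. In another sort of window A-to-G dominated. At 3LHet from 2545001 to 2546000, 35 of 56 differences (62.5%) were A-to-G, 34 of them at a reference A and 1 at a reference T. At 2RHet from 659001 to 660000, 19 of 31 (61.3%) were A-to-G, 15 at a reference T and 4 at a reference A. Of the 155 windows with 5 or more A-to-G differences, 17 had A-to-G as at least 50% of their differences.

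A-to-G differences close to each other were more often on the same strand on Het scaffolds than on the arms. Of neighbouring A-to-G differences at most 100 bp apart within a library, 76.8% (109 of 142 pairs) and 72.8% (243 of 334) had the same reference base on Het scaffolds in NextSeq replicates 1 and 2, against 65.1% and 64.5% on the arms. In HiSeq replicates 1 and 2 the shares were 77.9% (113 of 145) and 75.1% (278 of 370) on Het scaffolds, against 63.3% and 68.1% on the arms. The Het value was higher in 4 of 4 libraries, by 10.4 points ± 3.42 on average (SD, n = 4; exact sign-flip permutation p = 0.125, adjusted p = 0.179 over 10 tests). For pairs up to 1000 bp apart it was 4.40 points. For G-to-A, the reverse change, the same-strand share on Het scaffolds was 57.9% and 53.4% on NextSeq and 55.6% and 50.3% on HiSeq. For A-to-C it was 65.4% and 60.7% on NextSeq and 53.8% (39 pairs) and 73.4% (64 pairs) on HiSeq, the last close to A-to-G.

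How many A-to-G differences had an A-to-G neighbour within 100 bp on either strand was not consistently different. The share was 40.3% and 50.4% on Het scaffolds in NextSeq replicates 1 and 2, against 47.2% and 50.7% on the arms. In HiSeq replicates 1 and 2 it was 45.8% and 55.5% on Het scaffolds, against 42.8% and 47.0% on the arms. The mean difference was 1.08 points ± 6.43 (SD, n = 4; exact sign-flip permutation p = 0.750, also after adjustment over 10 tests), below 0 on NextSeq and above 0 on HiSeq, and -1.39 points without HiSeq replicate 2. Within 10 bp the mean difference was 6.35 points and within 1000 bp -5.58 points (exact sign-flip permutation p = 0.125 for each). The Het value was thus the higher one at the shortest distance and the lower one at the longest.

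A-to-G differences on Het scaffolds formed runs on the same strand. A run was defined as 3 or more A-to-G differences in a row with the same reference base, gaps of at most 100 bp and none of the other strand between them. Within single libraries, NextSeq replicates 1 and 2 held 21 and 47 such runs on Het scaffolds, with 13.3% and 17.0% of the A-to-G differences there. HiSeq replicates 1 and 2 held 24 and 60 runs, with 17.2% and 24.3%. G-to-A runs built by the same rule held 2.79% and 6.64% of the G-to-A differences on Het scaffolds in NextSeq replicates 1 and 2, and 2.42% and 5.62% in HiSeq replicates 1 and 2. The A-to-G share exceeded the G-to-A share in 4 of 4 libraries, by 13.6 points ± 3.97 on average (SD, n = 4; exact sign-flip permutation p = 0.125, adjusted p = 0.179 over 10 tests). With runs of 5 or more it was 4.69 points. A-to-G differences outnumbered G-to-A differences on Het scaffolds in each library. They numbered 581 against 358 and 1057 against 723 in NextSeq replicates 1 and 2. In HiSeq replicates 1 and 2 they numbered 522 against 454 and 1009 against 676. The part of these unequal numbers in the run shares was not tested. The longest A-to-G run of a single library had 9 and 10 positions on NextSeq and 14 and 16 on HiSeq, against 4 and 4 on NextSeq and 5 and 4 on HiSeq for G-to-A. Reads that failed the first mapping were remapped by the submitters under a setting that names the bases G and A, which may treat these changes unequally, and its part in the runs was not tested.

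On the arms the same excess of A-to-G over G-to-A in runs was smaller. It was 10.5 and 10.4 points on Het scaffolds in NextSeq replicates 1 and 2, against 7.84 and 8.32 points on the arms. In HiSeq replicates 1 and 2 it was 14.8 and 18.7 points on Het scaffolds, against 4.33 and 6.92 points on the arms. The mean difference between Het scaffolds and arms was 6.73 points (exact sign-flip permutation, two-sided, p = 0.125). This comparison was chosen after the values were seen and was not among the 10. Part of it came from G-to-A, whose run share was larger on the arms in all 4 libraries. That share was 5.75% and 7.13% on the arms in NextSeq replicates 1 and 2, and 7.17% and 8.09% in HiSeq replicates 1 and 2. In NextSeq replicate 1 the A-to-G run share itself was not higher on Het scaffolds (13.3%, against 13.6%). The run share of A-to-G alone was 13.6% and 15.4% on the arms in NextSeq replicates 1 and 2 and 11.5% and 15.0% in HiSeq replicates 1 and 2, and so differed less, being 4.07 points ± 4.30 higher on Het scaffolds (exact sign-flip permutation p = 0.250, adjusted p = 0.312; higher in 3 of 4 libraries). This value was 2.33 points without HiSeq replicate 2 and 2.19 points without 3LHet, and it changed sign with gaps of up to 500 bp (-1.98 points). It was 6.20 points with gaps of up to 50 bp and 1.29 points for runs of 5 or more. On NextSeq, changes that are frequent everywhere also fell into runs. A-to-T runs held 29.8% and 36.7% of the A-to-T differences on Het scaffolds and 39.2% and 43.0% on the arms, so a run on NextSeq is by itself not particular to A-to-G.

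**Figure D2:**
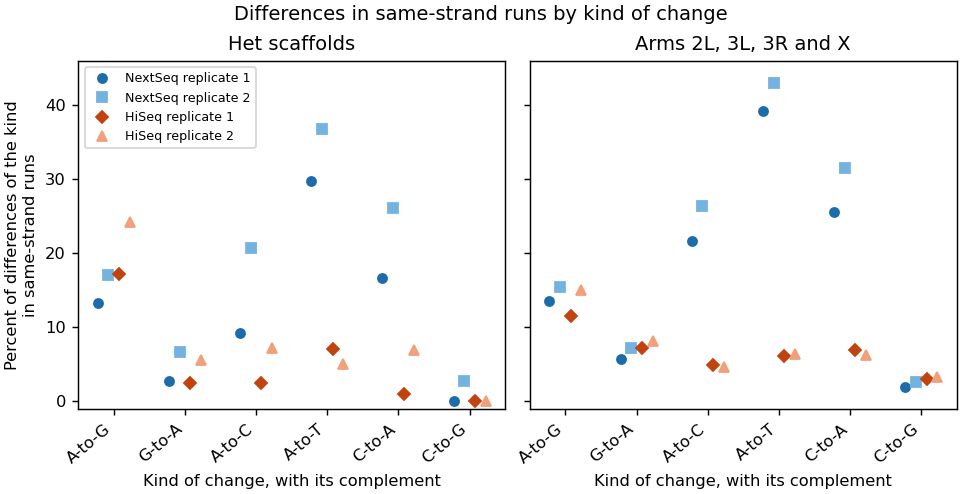
Percentage of the differences of each kind that lie in same-strand runs of 3 or more at gaps of at most 100 bp (vertical axis), by kind of change with its complement (horizontal axis), on Het scaffolds and on the arms. Each point is 1 library. In the HiSeq libraries A-to-G stands above the other kinds on both, at 17.2% and 24.3% on Het scaffolds, while in the NextSeq libraries A-to-T reaches 29.8% and 36.7%.

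When the 4 tables were joined, 191 A-to-G runs held 803 of the 2700 A-to-G positions on Het scaffolds (29.7%), close to the 28.3% on the arms. There were 88 runs on 2RHet, 58 on 3LHet, 29 on 3RHet, 11 on XHet, 3 on 2LHet and 2 on YHet. At the edge of the definition, 111 runs had exactly 3 positions and 80 had more. Runs of 5 or more positions numbered 43 for A-to-G and 3 for G-to-A on Het scaffolds, and 1720 for A-to-G and 660 for G-to-A on the arms. They held 11.9% of A-to-G positions on Het scaffolds and 11.1% on the arms. For the other kinds Het scaffolds had 280 runs of 5 or more for A-to-T, 84 for C-to-A, 50 for A-to-C and none for C-to-G, so that in the joined tables A-to-G did not have the most long runs. Of the 191 runs, 16 drew on all 4 libraries, 52 on 3, 78 on 2 and 45 on a single library. Libraries of replicate 2 alone supplied 71 runs and libraries of replicate 1 alone 16, while 104 had positions from both. The libraries of replicate 2 also held more A-to-G differences on Het scaffolds, 1057 on NextSeq and 1009 on HiSeq, against 581 and 522 for replicate 1.

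The run with the most positions lay at 3LHet from 2544944 to 2545410. With the 4 tables joined, it had 35 A-to-G positions in 467 bp, all at a reference A. The longest of 7017 joined runs on the arms had 28. Within single libraries, runs on Het scaffolds were not longer than on the arms. The longest had 9 and 10 positions in NextSeq replicates 1 and 2, against 15 and 18 on the arms. In HiSeq replicates 1 and 2 it had 14 and 16, against 14 and 18. Of the 35 joined positions, NextSeq replicates 1 and 2 listed 9 and 15, and HiSeq replicates 1 and 2 listed 16 and 16. All 4 libraries thus took part, 15 positions were in 2 or more libraries, and 8 were found under both replicate numbers. The median gap was 3.5 bp, and 11 pairs of positions were directly adjacent. The stretch held 8 differences of other kinds, and 1 of the 35 positions was on the site list.

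The run with the next most positions lay further along the same scaffold, at 3LHet from 2550775 to 2551235, and also had reference A throughout. Its 16 positions came from replicate 2, with 12 in NextSeq replicate 2 and 11 in HiSeq replicate 2, and none in either library of replicate 1. Of these, 7 were found on both instruments. No difference of any other kind and no listed site fell in its 461 bp.

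Another 4 runs on 3LHet followed. The run from 217680 to 217915 had 13 positions at reference A, 12 of them in HiSeq replicate 2, and the run from 716945 to 717245 had 13 at reference T, with 2 to 9 in each library. The run from 223061 to 223274 had 10 positions at reference A. The run from 598105 to 598268 had 9 at reference A and 2 or 3 in each library, but also 25 differences of other kinds, so A-to-G was not the main change there. None of these 4 contained a listed site.

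Runs of 8 positions numbered 6, of which 5 lay on 2RHet and 1 on XHet (64743 to 64932), and the 4 described here are the first of this tie by position on 2RHet. Those from 636555 to 636660, from 637439 to 637502 and from 659876 to 659999 were at reference T, and the one from 636978 to 637112 at reference A. The 3 runs between 636555 and 637502 thus alternated in strand within 1000 bp. HiSeq replicate 2 supplied 7 positions of the run from 636555 to 636660 and none of the run from 636978 to 637112, of which 5 came from HiSeq replicate 1. Of 61 pairs of neighbouring runs at most 1000 bp apart on Het scaffolds, 32 (52.5%, exact 95% interval 39.3 to 65.4) were on opposite strands, against 1102 of 3388 (32.5%, 31.0 to 34.1) on the arms. Pairs that share a run are not independent, so no test was made of this.

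**Figure D3:**
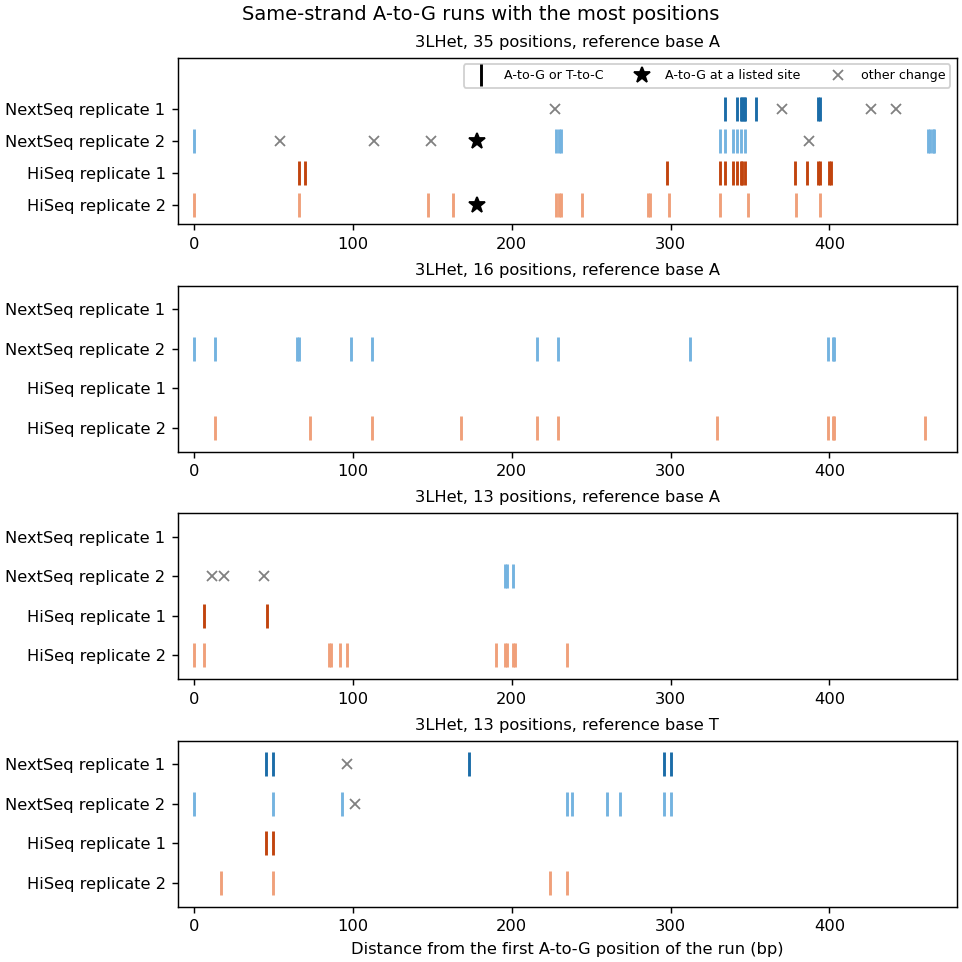
Positions of the 4 richest same-strand A-to-G runs, as distance in bp from the first A-to-G position of the run (horizontal axis), by library (rows). Coloured ticks are A-to-G or T-to-C differences, a star is an A-to-G difference at a listed site and grey crosses are other changes. The 35-position run draws on all 4 libraries, and the 16-position run on the 2 libraries of replicate 2.

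Recurrence across libraries was higher on Het scaffolds than on the arms. Of the A-to-G differences of a library, 30.1% and 22.8% on Het scaffolds were also in another library for NextSeq replicates 1 and 2, against 19.0% and 12.5% on the arms. For HiSeq replicates 1 and 2 the shares were 35.1% and 24.5% on Het scaffolds, against 20.9% and 15.7% on the arms. The difference was 11.1 points ± 2.24 (SD, n = 4; exact sign-flip permutation p = 0.125, adjusted p = 0.179 over 10 tests; higher in 4 of 4 libraries). A position shared by 2 libraries counts in the values of both. The 4 values are thus not independent, and this SD and p do not measure a spread between independent libraries. The difference was 4.33 points when only libraries of the other replicate number counted, and 1.02 points for presence in all 4 libraries. Unlisted A-to-G positions were shared mostly between libraries of the same number. NextSeq replicate 1 and HiSeq replicate 1 shared 139 such positions on Het scaffolds, which was 24.2% of the first and 26.9% of the second library. NextSeq replicate 2 and HiSeq replicate 2 shared 199 (19.0% and 20.0%). Pairs of different number shared 52 to 64. The arms had the same pattern, with 2436 shared in the pair of number 1 (12.9% and 13.8%), 3669 in the pair of number 2 (9.07% and 11.3%), and 827 to 968 in pairs of different number.

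Recurrence was not a property of A-to-G in particular. Over all unlisted distinct differences on Het scaffolds, 13.6% of A-to-G (12.3 to 14.9) were found in 2 or more libraries, 15.8% of G-to-A (14.2 to 17.6), 10.6% of C-to-G, 5.85% of A-to-C, 5.03% of C-to-A and 4.52% of A-to-T. On the arms the values were 7.16% for A-to-G, 9.58% for G-to-A, 5.39% for C-to-G, 4.46% for A-to-C, 4.72% for C-to-A and 3.73% for A-to-T. Unlisted A-to-G positions inside runs on Het scaffolds were found in 2 or more libraries in 16.1% of 788 cases (13.6 to 18.9), and those outside runs in 12.5% of 1891 (11.1 to 14.1).

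**Figure D4:**
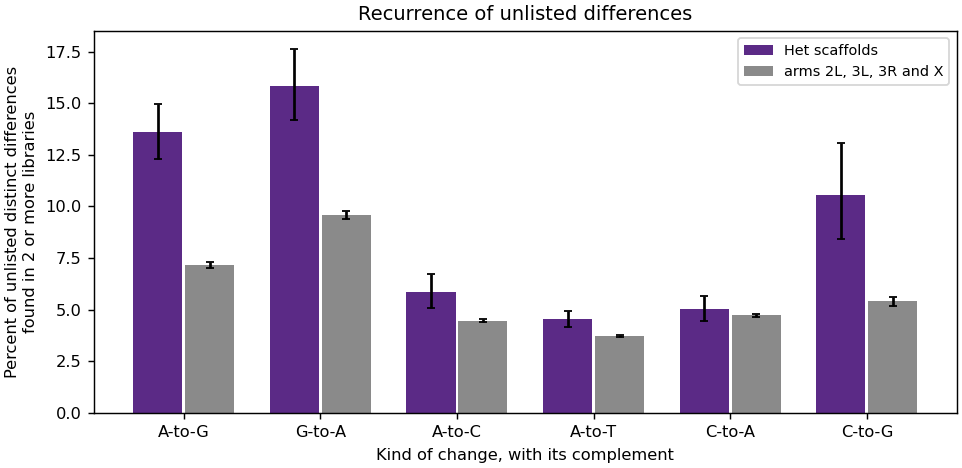
Percentage of unlisted distinct differences found in 2 or more of the 4 libraries (vertical axis) by kind of change with its complement (horizontal axis), for Het scaffolds (left bar) and arms (right bar), with exact 95% binomial intervals. G-to-A reaches 15.8% and A-to-G 13.6% on Het scaffolds, against 9.58% and 7.16% on the arms.

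Differences found in all 4 libraries were few, and XHet held more of them than its share of differences. There were 149 on Het scaffolds (0.574% of distinct differences, 0.485 to 0.673) and 2766 on the arms (0.206%). XHet held 46 of the 149 (30.9%), although it held 6.83% of all Het differences. Of these 46, 16 were G-to-A, 16 A-to-T, 9 C-to-A and 5 A-to-G. On 2RHet there were 55, on 3LHet 26, on 3RHet 19, on 2LHet 2 and on YHet 1. Of the 149, 77.9% were seen on both read strands in at least 1 library.

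A-to-G positions in all 4 libraries were rarely listed sites on Het scaffolds. There were 23, of which 1 was on the site list (2RHet 660152), against 307 of 541 on the arms. With listed sites left out, 22 A-to-G and 39 G-to-A positions were in all 4 libraries on Het scaffolds, a ratio of 0.564, against 234 and 486 on the arms, a ratio of 0.481. The 22 were spread over 3LHet, 2RHet, XHet and 3RHet. Of the 22, 3LHet 716995 lay inside the 13-position run at reference T and 2RHet 3181108 began a run of 3 at reference A, both named after their values were seen.

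The 32 listed sites fell into 17 tracts when sites at most 1000 bp apart were joined, 6 of which had 2 or more sites. They lay on 2RHet (17 sites), 3LHet (10), 2LHet (2), 3RHet (2) and XHet (1), with none on YHet. Another listed site lay within 100 bp of 19 of the 32 (59.4%, exact 95% interval 40.6 to 76.3), against 569 of 1012 (56.2%) on the arms. A-to-G was seen in at least 1 library at 21 listed sites on Het scaffolds and 890 on the arms. These detected sites made up 0.778% of the distinct A-to-G differences on Het scaffolds and 0.874% on the arms. Per distinct difference of any kind, all listed sites were more frequent on Het scaffolds (32 per 25980) than on the arms (1012 per 1344928). These sites include some seen in no library, and the differences are of all kinds, so this ratio is not a density of editing.

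Fewer of the listed sites on Het scaffolds were visible in mock-treated RNA. NextSeq replicates 1 and 2 showed A-to-G at 7 and 12 of the 32 sites (21.9% and 37.5%), against 40.8% and 73.0% of the sites on the arms. HiSeq replicates 1 and 2 showed it at 5 and 13 sites (15.6% and 40.6%), against 45.7% and 77.4% on the arms. The mean difference was -30.3 points ± 8.13 (SD, n = 4; exact sign-flip permutation p = 0.125, adjusted p = 0.179 over 10 tests; lower in 4 of 4 libraries). Coverage, expression and editing level at these sites cannot be told apart, and in whole heads neither can fewer cells of a type and less RNA per cell. The site list names no sample, so it is unknown whether these libraries were used to make it. Detection in them may therefore not be independent of the list. In at least 1 library 21 of 32 sites were seen (65.6%, 46.8 to 81.4), against 890 of 1012 (87.9%, 85.8 to 89.9) on the arms. In all 4 libraries it was 1 site (3.12%, 0.0791 to 16.2), against 307 (30.3%, 27.5 to 33.3). Of the 21 detected sites, 13 were seen in libraries of replicate 2 alone, 3 in those of replicate 1 alone and 5 under both numbers. Replicate 2 also showed more of the listed sites on the arms with both instruments, so this split is not particular to Het scaffolds.

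The 2 largest tracts had 6 sites each. The tract at 2RHet from 1545419 to 1545478 (60 bp) had 3 detected sites, all at reference T, with 1 and 2 in NextSeq replicates 1 and 2 and 0 and 2 in HiSeq replicates 1 and 2. Unlisted T-to-C differences lay at 5 further positions within 100 bp, and none of the opposite strand did. The positions at its first end formed a run of 8 in 28 bp, from 1545417 to 1545444, of which 3 were listed, 6 were in 2 or more libraries, and 7 and 6 were in NextSeq and HiSeq replicate 2. The tract at 3LHet from 2481710 to 2481752 (43 bp) had 3 detected sites, at reference A, with 1 and 3 in NextSeq replicates 1 and 2 and 1 and 0 in HiSeq replicates 1 and 2, and 2 unlisted same-strand positions beside them.

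Of the smaller tracts, that at 2RHet from 999507 to 999519 had 3 sites, all at reference T and all detected in HiSeq replicate 2 and in no other library. The pair at 2LHet 22235 and 22243 was seen only in libraries of replicate 1, with both sites in NextSeq and 1 in HiSeq, at reference T. Here 5 T-to-C positions, 2 of them listed, formed a run of 14 bp from 22234 to 22247, with 5 in NextSeq replicate 1, 3 in HiSeq replicate 1 and none in either library of replicate 2. The pair at 2RHet 57344 and 57349 had 1 detected site, at reference T, in both libraries of replicate 2. The pair at 2RHet 3233879 and 3234019 had 1 detected site, at reference A, in NextSeq replicate 2 and HiSeq replicate 1, with 11 unlisted same-strand and 2 opposite-strand positions within 100 bp. In every tract with more than 1 detected site the reference base was the same at each.

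**Figure D5:**
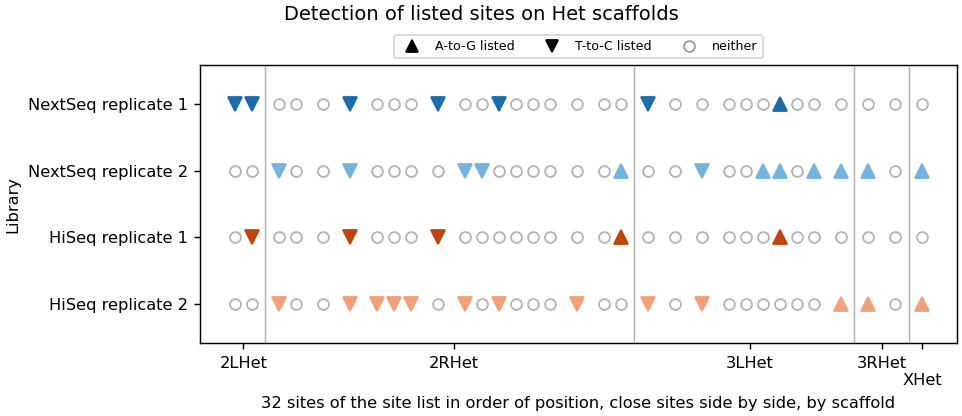
Detection of the 32 listed sites on Het scaffolds (horizontal axis, in order of position, with sites of a tract side by side) in each library (rows). Filled triangles mark A-to-G (up) or T-to-C (down) and open circles neither; 1 site is filled in all 4 rows and 11 in none.

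Among the 21 detected sites the reference base was T at 14 and A at 7, whereas on the arms it was A at 481 and T at 409. The 14 sites with T lay in 9 tracts on 2LHet, 2RHet and 3LHet, so they are not 14 independent positions. The single site on XHet, at 192737, was seen in both libraries of replicate 2 and in neither library of replicate 1, and on both read strands in at least 1 library. It lay in the window with 181 differences, with 34 unlisted differences of other kinds within 100 bp. Of the 191 A-to-G runs of the joined tables, 8 contained listed sites, 15 of the 32 sites in all. On the arms 358 of 7017 runs did, with 666 of the 1012 sites, so the overlap was not particular to Het scaffolds.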

How the data were processed

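Adult heads (about 50 per sample, 5 µg total RNA) gave oligo(dT)-selected RNA, and the 4 libraries used were mock-treated, per the labels. Reads were mapped to dm3 with TopHat 2.0.6 and Bowtie 2.0.2, with 4 mismatches and 1 alignment per read, per the labels' protocols. Reads left over went to bsmap 2.74 with 3 mismatches and an option naming G and A, again per the labels. The submitters' processing notes also list SAMtools 0.1.19. Keeping 1 alignment can leave the origin of reads from repeats uncertain, and repeat content was not measured here. The deposited tables hold positions and bases, per the file headers, and the authors' site list holds positions alone. No header or label used here gives the calling rules or a minimum depth.

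A distinct difference was a position and base within a library. A reference A was read as the forward and a reference T as the reverse transcript strand. The 10 planned comparisons used exact permutation of libraries (sign flips within libraries, or 2 against 2), two-sided, with Benjamini-Hochberg adjustment. No test runs across features, so there is no calling threshold. Shares have exact (Clopper-Pearson) 95% intervals. Named regions were all scaffolds, all listed tracts of 2 or more sites, and the 10 A-to-G runs with the most positions, ties by position. Windows and further listed sites named were chosen after their values were seen. Members, lists and definitions were chosen with earlier results of these data known. Alternatives changed gaps, windows, run length, read strands, listed sites, scaffolds and libraries. Genes were not assigned, since no dm3 annotation was used here. Functions were tested on simulated data. The tools were scipy 1.17.1, numpy 2.4.6 and pandas 2.3.3 under Python 3.11.15, with figures from matplotlib 3.10.9.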

Additional observations from a re-analysis of the deposited data

Results flagged for a closer look

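The share of A-to-G differences with an A-to-G neighbour within 100 bp, Het scaffolds minus arms, went in opposite directions on the instruments. It was -6.89 and -0.305 points in NextSeq replicates 1 and 2, and 3.03 and 8.48 points in HiSeq replicates 1 and 2. NextSeq minus HiSeq was -9.35 points. This difference between instruments was not tested, and instrument, read length and depth cannot be told apart.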

How the results depend on the processing

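Of 91 alternative settings over 10 results, 87 kept the direction and 4 reversed it. The 87 include taking NextSeq minus HiSeq within replicate numbers, which cannot change the mean. No test could pass 0.05 at this number of libraries, so a kept direction says nothing of significance. The A-to-G share of Het scaffolds minus arms became -0.427 points among differences on both read strands. The share with a close neighbour became -5.58 points within 1000 bp and -1.39 points without HiSeq replicate 2. The run share of Het scaffolds minus arms became -1.98 points with gaps of up to 500 bp. The cause was not tested in any of these. The run share was 2.59 points without the run with the most positions, an alternative chosen after seeing the data, as were leaving that run out of the A-to-G minus G-to-A comparison (12.1 points, against 13.6) and leaving A-to-T and C-to-A out of the A-to-G share (6.99 points, against 4.07).

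Leaving out each library in turn gave 2.86 to 4.78 points for the A-to-G share, -1.39 to 3.73 for close neighbours, -3.47 to -1.70 differences per window, 7.73 to 9.23 points for recurrence, 1.17 to 1.61 for differences on both read strands (1.39 with all libraries), -34.1 to -28.2 for listed sites, 8.95 to 11.5 for same-strand pairs, 2.33 to 5.53 for the run share, 11.9 to 14.6 for A-to-G minus G-to-A in runs, and -21.9 to -17.0 for NextSeq minus HiSeq. For recurrence, leaving out a library also leaves fewer libraries in which a position can be found again. Its range is thus not on the scale of the 11.1 points with all libraries. The replicate block, which takes NextSeq minus HiSeq within replicate numbers, gave the same -19.5 points (exact sign-flip permutation p = 0.5, the smallest for 2 pairs). With 1 library per instrument and replicate number this mean cannot differ, so it is no check of the value. The labels do not say that the numbers mark a shared sample. Without read counts, differences on the arms and on Het scaffolds cannot be set against their coverage.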
